A study of Arabidopsis thaliana with 12 samples.

Results

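In Arabidopsis thaliana seedlings, 268 introns in 250 genes were retained more in the picln-1 mutant than in wild type (WT), and at least as much in picln-1 as in the prmt5-5 mutant. They were taken from the 3481 intron bins listed in 2 of the authors' tables, which set the bin usage of each mutant against WT. A bin is a piece of a gene cut at annotated splice sites, here a whole intron. An intron was chosen if between 0% and 10% of its junction reads, both limits excluded, retained it in WT, if that share was at least 5 percentage points higher in picln-1, and if the share in picln-1 was equal to or higher than in prmt5-5. The retained shares of all 3 genotypes therefore chose the members and are given as a description, with no test. The members include 1 intron each of LpxC1 to LpxC5, 5 gene copies of a lipid A synthesis enzyme, and these 5 introns have identical shares in every genotype, 10.2% in picln-1, 9.28% in prmt5-5 and 1.75% in WT. The copies may share reads, and counted once they leave 264 introns.

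The series holds 12 libraries of polyadenylated RNA from seedlings, 4 each of WT, picln-1 and prmt5-5. All seedlings grew at 22 °C for 10 days in 12 h light and 12 h dark, and the treatment named in the labels is 9 days of that same light regime. The series' design line mentions cold, which no sample label gives, and the sample labels were followed. Each mutated gene is represented by a single mutant line, and both lines were compared with the same WT libraries. In the authors' deposited table the pICln transcript (AT5G62290) was lower in picln-1 (log2 change -3.48, adjusted p = 1.65e-94), and PRMT5 (AT4G31120, RefSeq symbol SKB1) had an intron with a retained share of 81.0% in prmt5-5, where picln-1 had 0.870% and WT 0%. The labels do not state whether libraries of one genotype are separate plant cultures, and the authors' p-values may reflect only technical spread. The deposited fractions are 1 pooled value per genotype, so there is no spread between libraries and the depth behind a fraction is unknown. In whole seedlings a change in the cells that express a gene and a change in splicing within those cells cannot be told apart.

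Introns are removed by the spliceosome, whose core particles are small nuclear ribonucleoproteins (snRNPs) built on rings of Sm proteins. pICln is an assembly chaperone that holds Sm proteins before they are loaded onto the small nuclear RNA, and PRMT5 is a methyltransferase that symmetrically dimethylates arginines, including those in Sm proteins. The U1 snRNP pairs with the 5' splice site, and the U2AF proteins and the U2 snRNP recognise the end of the intron. Retention of a whole intron is a common form of alternative splicing in plants, and a retained intron in coding sequence often brings an early stop codon.

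The 5' splice sites of the members with the largest excess of retention in picln-1 over prmt5-5, and of the members in clock genes, are printed here because the scores of members and of introns higher in prmt5-5 lay further apart at this site than at the 3' site. Each sequence runs from 6 exon bases to 14 intron bases on the gene's strand (RefSeq TAIR10.1), and capitals mark the 9 bases that were scored, 3 of the exon and 6 of the intron.
AT5G06270 intron 1: ttcAAGGTATTTtctccgac
AT1G70180 intron 4: gaaATGGTATAGatgtgaat
AT1G58602 intron 3: aaaTAGGTACCCaattaagc
SDG40 intron 4: gaaCAGGTACAAgtcctcaa
PMR6 intron 1: catCAGGTAAACaaaagctc
GSL12 intron 27: atcGAGGTTGGCgactttct
CPSF160 intron 5: gctATTGTATGTtcgtattt
AT2G35830 intron 2: acaAATGTGAGTgaagaatg
TOC1 intron 4: aatGAGGTGAGAaagtattt
PRR3 intron 7: aagAAGGTAACTtttcatga
BOA intron 1: ataCTGGTGAGCttgttttc

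For contrast, these are the same windows of the 4 introns that met the WT and picln-1 limits but had the largest excess of retention in prmt5-5.
CCD1 intron 1: cttCCCGTGAAAttctctca
AT5G25270 intron 2: aaaTGTGTATGAaaaacgag
AT2G25760 intron 5: ccaGGCGTAAACattcactc
AT2G17320 intron 1: tttCAAGTTCCTctctctct

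The exon ended in G before 9 of the 11 introns of the first set and before none of the second. A position weight matrix built from the annotated introns scored the first set from 4.09 bits (GSL12) to 9.66 bits (AT5G06270). The second set scored 0.00568 bits (CCD1), 2.65 bits (AT5G25270), 0.594 bits (AT2G25760) and 2.54 bits (AT2G17320). All values of the second set lay below all values of the first. The printed introns were picked for large differences between the mutants or from the clock list. Among all 362 introns that met the same limits but were higher in prmt5-5, scores ran from -1.17 to 10.7 bits. Those of all members ran from 1.37 to 10.9 bits, so the full sets overlapped widely. The exon ended in G before 55.0% of these 362 introns and before 76.8% of the members.

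Across the 268 members, the authors' retained share had a median of 13.7% in picln-1, 8.26% in prmt5-5 and 3.35% in WT. The share in picln-1 ranged from 5.75% to 48.8% and reached at least 20% in 62 introns. The rise over WT had a median of 10.0 points in picln-1, with quartiles of 7.38 and 13.8, and of 4.69 points in prmt5-5, with quartiles of 1.98 and 7.73. The prmt5-5 share was thus also above WT for most of these introns, and it was at or below WT in 19 of 268. In 125 members the prmt5-5 rise was itself at least 5 points.

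The excess of picln-1 over prmt5-5 was often small. It was at least 10 points in 52 members, at least 5 points in 132 and under 1 point in 39, of which 3 had equal values in both mutants. Close to the limits of the rule, intron 4 of RDH2 lay just inside the WT limit with 9.97% in WT, and intron 8 of AT5G46510, with 10.1%, just outside it. Intron 7 of IWS1 had the lowest WT share of the members, 0.221%. Intron 9 of AT3G15520 was 5.01 points above WT in picln-1, next to the limit. Of listed introns with a WT share under 10% and more retention in prmt5-5, the single intron of UGT74F2 lay just below that limit, 4.98 points above WT in picln-1. Among those at least as high in picln-1 as in prmt5-5, none lay between 0 and 5 points. Intron 5 of TRFL7 was left out with 8.16% in picln-1 against 8.26% in prmt5-5.

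**Figure D1:**
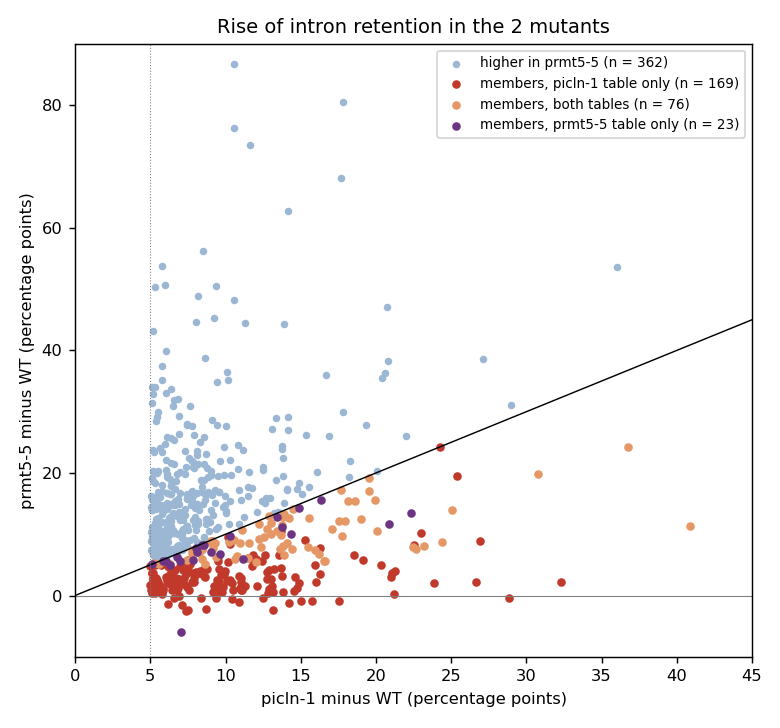
Rise of the retained share over WT in picln-1 (x axis) and prmt5-5 (y axis), in percentage points, for the 268 members and the 362 introns that met the same WT and picln-1 limits but were higher in prmt5-5. Points below the diagonal are the members by construction; those listed for picln-1 only gather near 0 on the y axis and those listed in both tables lie closer to the diagonal.

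The authors listed 245 of the members in the picln-1 table, all with higher usage, where 0.428% of the 112984 bins tested were listed as higher. They listed 99 in the prmt5-5 table, 98 of them with higher usage, where 2.82% of 118209 bins were listed as higher. These comparisons chose the members, so nothing is read from the counts. By table, 169 members were listed for picln-1 alone, 76 for both mutants and 23 for prmt5-5 alone. Members listed in both had a median retained share of 17.1% in picln-1 and 13.5% in prmt5-5, against 4.31% in WT. Those listed for picln-1 alone had 12.8% in picln-1, 5.84% in prmt5-5 and 3.23% in WT. The prmt5-5 rise was over 5 points in 27 of these 169, and the tables give no prmt5-5 p for them. For the 23 listed for prmt5-5 alone the medians stood at 11.8% in picln-1, 9.76% in prmt5-5 and 2.70% in WT. The tables give no picln-1 p for these 23, so a change in picln-1 was not called for them.

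The authors' log2 change of bin usage had a median of 1.86 over the 245 members listed in the authors' deposited table for picln-1, with a range from 0.64 to 4.35. For the 76 members in both tables the median log2 change in the authors' deposited tables was 1.82 in picln-1 and 1.55 in prmt5-5, and it was larger in picln-1 for 58 of them. These values come from the libraries and introns whose fractions chose the members, so nothing is read from that order. One member was listed with lower usage in prmt5-5. Intron 7 of the protein kinase gene AT1G73660 was retained in 16.1% in picln-1, 3.09% in prmt5-5 and 9.09% in WT, with a log2 change of -1.65 in prmt5-5 (adjusted p = 0.0477 in the authors' deposited table). It was named after its values were seen.

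The largest rise in picln-1 was in the single intron of AT5G06270, a gene of unknown function (TAIR10 chromosome 5, 1912818 to 1912894, 5' untranslated region, 77 bp). Its retained share was 48.8% in picln-1, 19.3% in prmt5-5 and 7.94% in WT. In the authors' deposited tables its log2 change was 2.78 in picln-1 (adjusted p = 2.79e-16) and 1.35 in prmt5-5 (adjusted p = 0.0135). Intron 1 of the zinc finger helicase gene AT2G46420 (chromosome 2, 19054066 to 19054760) was high in both mutants, with 43.4% in picln-1, 30.9% in prmt5-5 and 6.67% in WT. Intron 4 of AT1G70180, which encodes a protein with a sterile alpha motif domain (chromosome 1, 26427422 to 26427495), separated the mutants most, with 38.3% in picln-1, 8.26% in prmt5-5 and 6% in WT. Its prmt5-5 value was near WT while its picln-1 value was the third highest of all members.

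Several other introns were higher in picln-1 and close to WT in prmt5-5. Intron 3 of AT1G58602, a disease resistance gene of the NB-ARC and leucine-rich repeat class (chromosome 1, 21758659 to 21760158), had 35.1% in picln-1, 5.88% in prmt5-5 and 6.25% in WT. This gene belongs to a family of close copies, between which the counting could split reads. Its intron 6, above the WT limit, was high in both mutants, with 86.3% in picln-1, 83.3% in prmt5-5 and 48.4% in WT. Intron 4 of SDG40, which encodes a SET domain protein (chromosome 5, 5668087 to 5668189), had 32.4% in picln-1, 7.89% in prmt5-5 and 5.71% in WT. Intron 1 of PMR6, a pectate lyase-like gene known from powdery mildew resistance (chromosome 3, 20345448 to 20345529), had 32.5% in picln-1, 10.8% in prmt5-5 and 8.70% in WT. An annotated exon of the neighbouring gene AT3G54910 lies over the PMR6 intron, and the sources used here do not give the strand setting of the counting. In all 3 genes the WT and prmt5-5 values differed by under 3 points.

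Intron 27 of 42 of GSL12, a callose synthase gene (chromosome 5, 4115131 to 4115205), was retained in 22.96% in picln-1, 2.08% in prmt5-5 and 1.78% in WT. Intron 5 of CPSF160, which encodes a subunit of the cleavage and polyadenylation complex (chromosome 5, 20982034 to 20982357), had 20% in picln-1, 1.55% in prmt5-5 and 2.44% in WT. Both genes carried other introns with the opposite order. GSL12 intron 29 had 0% in picln-1, 15.7% in prmt5-5 and 0.341% in WT, and CPSF160 intron 8 had 11.6%, 45.9% and 14.3%. The mutant with more retention thus differed between introns of one gene.

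AFC2 (RefSeq symbol FC2), a LAMMER-type kinase of the class that phosphorylates SR splicing factors, kept intron 8 in 29.5% in picln-1, 14.3% in prmt5-5 and 6.29% in WT (adjusted p = 1.78e-15 for picln-1 and 0.00103 for prmt5-5 in the authors' deposited tables). Other listed AFC2 introns were higher in prmt5-5, such as intron 4 with 27.4% in picln-1, 39.7% in prmt5-5 and 9.63% in WT. Intron 2 of AK3, which encodes an aspartate kinase at the start of lysine and threonine synthesis, had 29.3%, 18.3% and 4.30% in picln-1, prmt5-5 and WT. AK3 intron 3, the next one, had the reverse order with 2.82% in picln-1, 22.7% in prmt5-5 and 0.595% in WT. AK3 intron 7, also a member, had 10.0% in picln-1, 5.82% in prmt5-5 and 2.01% in WT, and intron 6, above the WT limit, had 27.2%, 16.7% and 13.3% in the same order of genotypes.

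PnsL1, which encodes a lumenal subunit of the chloroplast NDH complex, held 3 members. Intron 7 had 15.1% in picln-1, 9.73% in prmt5-5 and 3.60% in WT, with the smallest adjusted p of all members (5.82e-33 in the authors' deposited table for picln-1). Intron 6 had 16.1%, 7.31% and 3.22% in the same order, and intron 1 had 13.1%, 5.78% and 3.58%. PnsL1 introns 2 and 4 were listed for prmt5-5 only, intron 2 with 5.48% in picln-1 and 10.1% in prmt5-5, and intron 4 with about as much in picln-1 (9.60%) as in prmt5-5 (10.01%). Cpn60beta4, a plastid chaperonin subunit gene, also held 3 members, introns 7, 8 and 10, at 16.5%, 18.3% and 25.7% in picln-1 and 13.6%, 7.44% and 8.38% in prmt5-5. Its intron 9 started from 35.3% in WT, outside the rule, and had 80.7% in picln-1 and 56.7% in prmt5-5. The folate metabolism gene DFD and AT5G17530 held 3 members each, and 14 of the 250 genes held 2 or more.

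**Figure D2:**
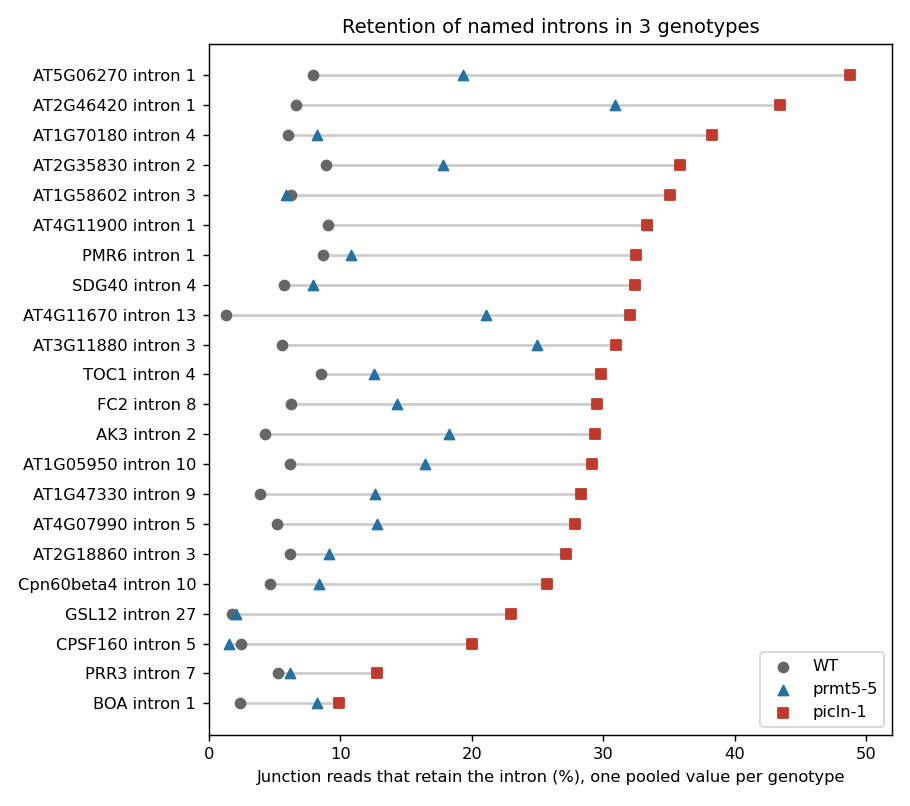
Retained share of junction reads (x axis, percent) for the 22 members with the largest rises, the largest excess over prmt5-5, or a place in the clock list. Circles are WT, triangles prmt5-5 and squares picln-1, each a single pooled value; AT1G58602 and CPSF160 have prmt5-5 at or below WT, and the prmt5-5 triangle of AT4G11900 lies under the picln-1 square at 33.3%.

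ORG1, a gene that responds to the transcription factor OBP3, held 2 members among its listed introns. Intron 3 had 23.2% in picln-1, 15.7% in prmt5-5 and 7.76% in WT (adjusted p = 7.57e-27 in the authors' deposited table for picln-1), and 5' untranslated intron 1 had 20.8%, 17.8% and 8.23%. ORG1 introns 6 and 7 were high in both mutants with the reverse order, at 12.2% and 11.6% in picln-1 and 15.7% and 13.01% in prmt5-5. Further members with small adjusted p were the single intron of AT4G10080, with 20.7% in picln-1, 12.2% in prmt5-5 and 4.74% in WT, and the 3' untranslated intron 5 of DI19, with 15.8%, 9.51% and 6.12%. Intron 1 of AT4G39970, a hydrolase-like gene, had a low share in every genotype, with 6.55%, 4.02% and 1.24%, yet one of the smallest adjusted p (5.79e-22 in the authors' deposited table for picln-1). A small adjusted p thus did not go with a large change of the fraction in every case.

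Clock genes held 3 of the members. Of 23 clock genes looked up, 8 had a listed intron, and 3 of their 10 listed introns were members, where 7.70% of all listed introns were. TOC1, an evening-expressed repressor of the central clock loop, kept intron 4 of 5 (chromosome 5, 24676740 to 24676823, coding sequence) in 29.8% in picln-1, 12.6% in prmt5-5 and 8.55% in WT. Its log2 change was 1.62 in the authors' deposited table for picln-1 (adjusted p = 2.18e-10), and it was not listed for prmt5-5. PRR3, whose protein stabilises TOC1, kept intron 7 in 12.8% in picln-1, 6.18% in prmt5-5 and 5.26% in WT (adjusted p = 0.00448 in the authors' deposited table for picln-1). The other listed PRR3 introns were not higher in picln-1 than in prmt5-5, the first coding intron with 0.952% against 7.89% and a 5' untranslated intron with 43.4% against 44.7%, where WT had 0.422% and 23.5%. BOA, a relative of the evening complex factor LUX, kept intron 1 in the 3' untranslated region in 9.92% in picln-1, 8.21% in prmt5-5 and 2.39% in WT (adjusted p = 0.0119 in the authors' deposited table for picln-1).

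Other clock introns had another order. FKF1 intron 1 met the WT and picln-1 limits but was higher in prmt5-5, with 18.7% in picln-1, 32.5% in prmt5-5 and 7.89% in WT. ELF3 intron 2, GRP8 intron 1 and a ZTL intron were lower than WT in picln-1, at 28.0%, 10.8% and 10.7% against 40.7%, 15.9% and 16.8%, and they were also lower than WT in prmt5-5, at 30.4%, 12.4% and 8.51%. The ZTL intron was not listed for picln-1, and in the authors' deposited table for prmt5-5 its log2 change was 0.49 while its fraction fell. RVE4 intron 7 had 2.46% in picln-1, 10.1% in prmt5-5 and 1.82% in WT. None of the 25 genes for SR proteins, PTB and U2AF, of the 13 snRNP genes or of the 14 flowering genes looked up held a member, although 11, 2 and 2 of them had a listed intron. These genes had 13, 2 and 2 listed introns, too few at a share of 7.70% to read anything from the absence. In the SR, PTB and U2AF list, 1 intron met the WT and picln-1 limits, PTB1 intron 1, and it had 8.11% in picln-1 against 52.8% in prmt5-5. These lists were written with earlier results of the same data known.

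The members were compared by sequence with the 362 introns that met the same WT and picln-1 limits but were higher in prmt5-5, and with 131013 annotated introns of protein-coding genes. Of the 268 members 267 matched an annotated intron exactly, LpxC2 (AT1G24880) holding the exception. The 5' splice site score of members had a median of 6.83 bits, with quartiles of 5.70 and 8.20. Introns higher in prmt5-5 scored 5.30 bits, with quartiles of 3.71 and 6.69, and all annotated introns 7.01 bits, with quartiles of 5.48 and 8.51. The members' 5' splice sites therefore scored near the annotated introns in general, and those of the introns higher in prmt5-5 scored lower. The sets also differed in how they were listed. Of the 362 introns 360 were listed for prmt5-5 and 94 for picln-1, against 99 and 245 of the members. All 3188 annotated introns listed as higher in prmt5-5, some members among them, had a median of 5.25 bits. The lower score was thus not particular to these 362 introns. No test was made, because introns are not replicates and the sets were chosen by outcome.

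Of 6 scored bases compared one by one, the last 2 exon bases and the fifth intron base lay furthest apart between members and introns higher in prmt5-5. The exon ended in G before 76.8% of the members, 55.0% of the introns higher in prmt5-5 and 76.5% of all annotated introns. The base before it was A in 64.0%, 43.9% and 63.3%. The fifth intron base was G in 55.8% of the members, against 42.3% and 49.6%. All of these bases pair with U1 small nuclear RNA in textbook 5' splice sites. Neither the last exon base nor the fifth intron base was G in 9 members (3.37%), against 17.96% of the introns higher in prmt5-5 and 5.54% of all annotated introns.

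At the 3' splice site the order was the other way round. The score over the last 20 intron bases and 3 exon bases had a median of 8.05 bits in members, 8.79 bits in introns higher in prmt5-5 and 9.04 bits in all annotated introns. The median T content of the last 20 intron bases was 40.0% in members and 45% in both other sets. It was also 40% in the 2336 other annotated introns of the host genes, whose median 3' score was 8.85 bits. The quartiles overlapped widely, from 5.72 to 10.2 bits in members and from 6.16 to 11.2 bits in the introns higher in prmt5-5. The 3' ends of the 4 lowest-scoring introns among the members named by rule are shown with 24 intron bases and 3 exon bases, and capitals mark the AG that ends the intron.
AK3 intron 2: ctttgagccggtggctttcattAGgct
AT3G11880 intron 3: aattcaactgtaaaatgtggtcAGgcc
AT1G70180 intron 4: gacccacccctctttgttactaAGatt
AT5G06270 intron 1: tgaaccaaacttaatccaatttAGatg

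They scored 1.22 bits for AK3, 2.23 bits for AT3G11880, which encodes a putative transmembrane protein, 2.52 bits for AT1G70180 and 3.004 bits for AT5G06270, and TOC1 intron 4 followed with 3.12 bits. The named members did not all score low at this end: CPSF160 intron 5 had 12.9 bits and BOA intron 1 had 14.9 bits.

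Members were also short. Their median length was 85 bp, against 99.5 bp for the introns higher in prmt5-5 and 101 bp for all annotated introns, and 71.2% of members were under 100 bp, against 50% and 47.9%. The shortest member was RDH2 intron 10 of 11 with 61 bp. Long introns were present too, with 13.1% of members over 300 bp against 14.9% and 13.2%. The GC content had a median of 35.1% in members, 33.3% in introns higher in prmt5-5 and 32.8% in all annotated introns. With the splice site bases at both ends left out it was 34.0%, 32.9% and 32.1%.

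**Figure D3:**
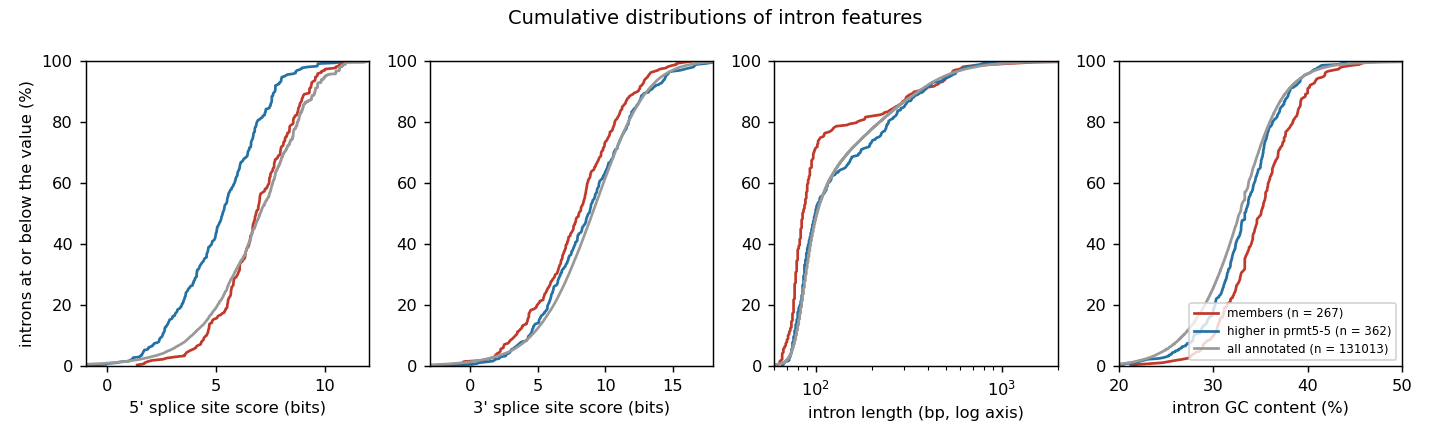
Cumulative share of introns (y axis, percent) by 5' splice site score, 3' splice site score, length and GC content for members, for introns higher in prmt5-5 and for all annotated introns. The members follow the annotated introns in the 5' score, where the introns higher in prmt5-5 lie to the left with a median of 5.30 bits, and they lie to the left in length and to the right in GC content.

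Introns of both sets were then grouped by the size of the difference between the mutants. From introns higher in prmt5-5 by 10 points or more (n = 134) to members higher in picln-1 by 10 points or more (n = 52), the median 5' score went from 4.80 to 7.01 bits and the share of exons ending in G from 46.3% to 84.6%. The median length went from 102.5 to 82 bp and the median GC content from 32.9% to 36.3%. Between these ends the median 5' score was 5.54 bits in introns higher in prmt5-5 by 5 to 10 points and 5.51 bits in those higher by under 5 points, so it hardly moved there. It was 6.71 bits in members with an excess under 5 points and 6.84 bits in those with 5 to 10 points. The largest step between neighbouring groups was thus at the limit of the rule. G at the fifth intron base went from 33.6% through 47.4% and 47.3% in the introns higher in prmt5-5 to 56.3%, 57.5% and 51.9% in the members, with no rise among the members toward the largest excess. Across the 629 introns of both sets with an annotated match, the difference had a Spearman correlation of 0.42 with the 5' score (Pearson 0.44), 0.25 with GC content (Pearson 0.21) and -0.23 with length (Pearson 0.01). With the 3' score it was -0.11 (Pearson -0.13). These correlations are across introns that share the same pooled libraries, and introns are not independent replicates. The rule also used this difference to split both sets, so the coefficients in part restate the step at its limit and are a description only.

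**Figure D4:**
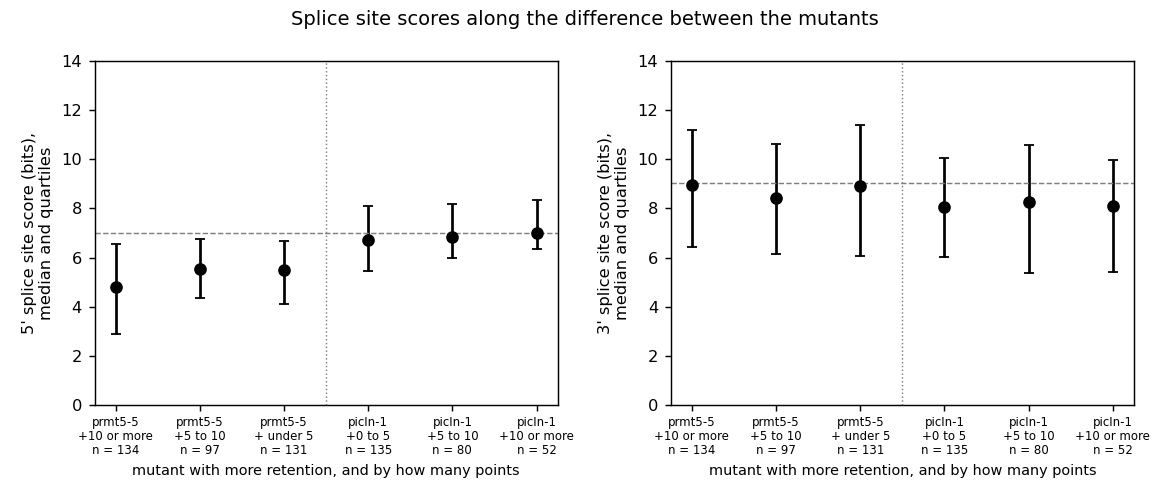
Median and quartiles of the 5' (left) and 3' (right) splice site score in bits, for the 629 introns grouped by which mutant had more retention and by how many percentage points. The dashed line is the median of all annotated introns and the dotted line the limit of the rule; the 5' median goes from 4.80 to 7.01 bits, and the 3' median lies between 8.04 and 8.97 bits.

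The host genes gave a comparison between introns of the same gene, which need not share a transcript. Besides their members, 109 of the 250 host genes held 192 other listed introns, and prmt5-5 was above picln-1 in 172 of these (89.6%). Among all 3213 listed introns that were not members the share was 96.4%. This order thus prevailed in listed introns outside the members, in the host genes and elsewhere. The rule took the members, all at least as high in picln-1, out of both shares. Both shares were raised by that, so nothing is read from their difference. In those 109 genes the 122 members had a median 5' score of 6.64 bits, a length of 84 bp and a GC content of 35.4%. The 192 other listed introns had 5.52 bits, 100 bp and 32.9%, and 181 of them were listed as higher in prmt5-5. All annotated introns listed as higher in prmt5-5 had medians of 5.25 bits, 111 bp and 33.0%. The gap within the host genes thus cannot be told apart from how the other introns were listed. Against all other annotated introns of their own gene, listed or not, members scored lower than the gene's median 5' score in 132 cases and higher in 127, and lower than its median 3' score in 152 and higher in 105. They were shorter than the gene's median intron in 176 of 259 cases and richer in GC in 165.

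Placed by the transcript annotated first among those with the intron, 231 of 267 members lay in coding sequence (86.5%), 19 in a 5' and 16 in a 3' untranslated region and 1 in a gene without coding sequence. Of all annotated introns 91.1% lay in coding sequence and 2.17% in a 3' untranslated region, against 5.99% of members. Retention would bring an in-frame stop codon within 206 of the 231 coding introns (89.2%), a share like the 89.0% of all annotated coding introns. In 5 members (2.16% of the coding introns) the intron had a length divisible by 3 and no in-frame stop. The share was 2.05% in coding introns higher in prmt5-5 and 3.39% in all annotated coding introns. These 5 members were named after their values were seen. They are SNL2 intron 10, GLR3.4 intron 3, AT2G02410 intron 4, AT5G18230 intron 8 and AT5G17530 intron 17. GLR3.4, a glutamate receptor-like channel gene, had 13.4% in picln-1, 2.58% in prmt5-5 and 4.71% in WT for this intron.

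Introns of the minor U12 class carry a distinct 5' site, and the letters ATCCT at intron bases 3 to 7 on the gene's strand were searched as its mark. They were found in 2 members, intron 9 of the uridine kinase family gene AT1G73980 and intron 2 of AT1G78995 (0.749%), in none of the introns higher in prmt5-5 and in 0.282% of all annotated introns. These counts are too small to read a difference from. AT1G73980 intron 9 had 12.8% in picln-1, 2.91% in prmt5-5 and 1.75% in WT, and the AT1G78995 intron had 17.9%, 17.4% and 5.64%. In 52 members (19.4%) the whole intron lies within an annotated exon of another transcript of the gene, against 12.7% of the introns higher in prmt5-5. The share over all annotated introns was not computed. Exons of another gene lie over 4 members, in PMR6, SNRK2.3, AT5G55050 and AT3G27990.

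None of the host genes listed for expression had a log2 change under 0.588 in size. In the authors' deposited table for picln-1, 6 of 250 host genes were listed (2.40%), 2 higher and 4 lower, where 1.69% of all genes tested were listed, 0.698% as higher and 0.996% as lower. The iron-deficiency transcription factor gene BHLH101 rose by 0.78 on the log2 scale and AT1G31870, which encodes a subunit of the RES splicing complex, rose by 0.68 in the authors' deposited table. The manganese transporter gene MTP11 (log2 change -0.63), the reticulon gene AT3G10260 (-0.63), AT5G44580 (-0.64) and the limit dextrinase gene LDA (-0.61) fell in the authors' deposited table. Retention in picln-1 was 8.76% for the BHLH101 intron, 13.8% for MTP11 and 27.9% for AT3G10260.

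More host genes were listed in prmt5-5. In the authors' deposited table for prmt5-5, 33 of 250 host genes were listed (13.2%), 27 higher and 6 lower, where 9.14% of all genes tested were listed, 4.99% as higher and 4.15% as lower. Of the 336 host genes of introns higher in prmt5-5, 70 were listed (20.8%), 64 higher and 6 lower. The largest changes among the members' hosts in the authors' deposited table were in AT1G73980 (log2 change 1.56), the cytochrome P450 gene CYP72A13 (1.19), GLR3.4 (1.14), the blue-light receptor gene PHOT2 (1.04) and the drought-induced zinc finger gene DI19 (-1.27). PHOT2 intron 12 had 9.62% in picln-1, 2.69% in prmt5-5 and 3.04% in WT. The sources used here do not say whether gene expression was counted with intron reads, so the part of retained introns in these gene values was not tested.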

How the data were processed

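Tables of the authors' own comparisons were used: gene expression and bin usage of picln-1 and of prmt5-5 against WT. TopHat and TAIR10 are named in the submitters' processing notes; the counting and testing programs are not given in the sources used here. Log2 fold changes, p-values and adjusted p-values are the authors', per the file headers; base 2 is assumed. The deposited fraction per genotype, the share of junction reads that retain an intron, was multiplied by 100. Per the deposited description, gene tables are limited to an adjusted p below 0.05 and bin tables to 0.15 with a change of the fraction above 0.05. Among the listed host genes the smallest log2 change of expression in size was 0.588, so smaller changes may not have been listed.

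The number of features tested was recovered from adjusted p divided by p. Introns were matched by start and end to RefSeq TAIR10.1 (99.8% of listed intron bins in each table), which gave symbols, positions and sequences. Splice sites were scored in bits, as the summed log2 ratio of base frequency to 0.25. Both steps were checked on simulated data. The scripts ran in Python 3.11.15 with pandas 2.3.3, numpy 2.4.6 and scipy 1.17.1.

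Named introns are the 15 largest rises in picln-1, the 10 largest excesses over prmt5-5, the 10 smallest adjusted p, members in 4 gene lists, those next to a limit, and the 5 largest expression changes of hosts per mutant; some are given only as points in a plot or as counts. Others are said to be chosen after their values were seen, or stand beside a member of the same gene. Members and lists were chosen with earlier results of these data known. No test was made, since the rule used the values.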

Additional observations from a re-analysis of the deposited data

How the results depend on the processing

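The number of members was 268. It moved to 134 with a rise of at least 10 points in picln-1 and to 132 with an excess over prmt5-5 of at least 5 points. With a WT share below 5% it was 192, it was 200 with an adjusted p below 0.05 for picln-1, and it was 281 with a WT share of 0 admitted. In the subset with an adjusted p below 0.05 the median retained share in prmt5-5 was 7.28% in place of 8.26%. The median share there was 3.23% in WT and 13.6% in picln-1, in place of 3.35% and 13.7%. Median length was 84 bp in place of 85 bp, and the median 5' score 6.93 bits in place of 6.83 bits. The subset is part of the same members, so close medians are no independent check. The median GC content there was 35.5% in place of 35.1%. Counting the LpxC introns once, a setting chosen after seeing the data, gave 264 members and left the medians of retention, length, GC content and both scores within that interval. The median GC content was 34.0% without the first 6 and last 20 bases. The median 3' score was 6.96 bits over 14 intron bases and 1 exon base, against 7.79 bits for introns higher in prmt5-5 and 7.73 bits for all annotated introns. The 5' score with a matrix from 1 intron per gene (6.86 bits) and the count in coding sequence by any transcript (235) moved little. No paired analysis was possible because the tables hold no values per library, and for the same reason no library could be left out in turn. Depth limits the fractions to an unknown degree.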
